A study of Mus musculus with 6 samples.

Results

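The cohesin subunits of the mouse fetal ovary were examined as 9 genes, of which 4 encode meiosis-specific subunits (Smc1b, Rec8, Stag3 and Rad21l) and 5 encode mitotic subunits (Smc1a, Smc3, Rad21, Stag1 and Stag2). They were selected by gene name, and the counts of all transcripts carrying that name were added up. All 9 names were found among 35974 gene names, and they covered 47 of 114412 transcripts. Each of the 6 samples was a pool of whole C57BL/6J ovaries at E15.5 (embryonic day). In the 3 PB pools, the pregnant mice had been given panobinostat (PB), an inhibitor of histone deacetylases, at 5 mg/kg by oral gavage from E6.5 to E15.5. In the 3 control pools, the mice had been given the DMSO and water vehicle. Dosing was every other day in the study's methods and per day in the sample annotation. The number of ovaries per pool is given as 4, as 6 to 8 and as at least 8 in different places. The comparison asks whether exposure of the embryo to the inhibitor altered gene expression in the fetal ovary.

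Cohesin is a ring that holds sister chromatids together. It is built from a pair of SMC proteins, a kleisin that closes the ring and a STAG protein bound to the kleisin. In germ cells entering meiosis, SMC1B stands in for SMC1A, REC8 and RAD21L for RAD21, and STAG3 for STAG1 and STAG2, whereas SMC3 is part of both kinds of complex. Meiotic cohesin forms the chromosome axes on which the synaptonemal complex assembles. In oocytes it has to keep the chromatids together throughout the arrest that precedes ovulation. At E15.5, most female germ cells of the mouse have entered meiotic prophase.

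The pools held between 97165644 and 125985399 counts. The labelled tissue was checked on marker genes, in CPM (counts-per-million) scaled by the trimmed mean of M-values. Foxl2, a transcription factor of pregranulosa cells, averaged 155 CPM in control and 154 CPM in PB, and Amh, a Sertoli cell hormone, averaged 0.952 and 0.945 CPM. Of the other Sertoli cell genes listed, Sox9 averaged 12.6 and 11.8 CPM, Cldn11 10.1 and 7.16 CPM and Dhh 1.29 and 1.02 CPM. The germ cell genes Ddx4 and Dazl together reached 420, 300.5 and 423 CPM in control 1, 2 and 3 and 428, 269 and 436 CPM in PB 1, 2 and 3. Control 2 and PB 2 were thus lower than the other 4 pools. Whole ovaries contain germ cells and somatic cells, and fewer cells of a type and less RNA per cell cannot be told apart in such pools. Across all genes the median correlation of a pool with the others was between 0.982 and 0.985, but PB 2 stood apart from PB 1 and PB 3 in the meiotic genes, so the fold changes and ratios of the subunits, and the counts of the gene lists described, are given with and without it. Genes of similar pattern were ranked with all pools.

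The promoters of Smc1b and Stag3 are printed first, because these 2 genes moved together most closely of the meiosis-specific subunits, and the promoter of Rec8 is printed because Rec8 did not follow them. Each sequence is the 250 bases before the transcription start of the transcript that holds most of the gene's counts, read 5′ to 3′ on the gene's strand, from RefSeq on GRCm38.p6, the patched form of mm10. The Smc1b window is chr15:85131958-85132207 on the minus strand, the Stag3 window is chr5:138280259-138280508 on the plus strand, and the Rec8 window is chr14:55617916-55618165 on the plus strand. Capitals mark matches, on either strand, to the motifs TCTCGCGA, CACGTG (an E-box) and GCGGGAA (an E2F-type motif), which were chosen after the sequences and the levels had been seen.
Smc1b: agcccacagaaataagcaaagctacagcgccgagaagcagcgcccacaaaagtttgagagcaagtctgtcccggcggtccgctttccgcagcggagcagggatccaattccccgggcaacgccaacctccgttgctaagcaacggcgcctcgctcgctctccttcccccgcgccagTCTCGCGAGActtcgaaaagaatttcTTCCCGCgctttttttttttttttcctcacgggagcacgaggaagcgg
Stag3: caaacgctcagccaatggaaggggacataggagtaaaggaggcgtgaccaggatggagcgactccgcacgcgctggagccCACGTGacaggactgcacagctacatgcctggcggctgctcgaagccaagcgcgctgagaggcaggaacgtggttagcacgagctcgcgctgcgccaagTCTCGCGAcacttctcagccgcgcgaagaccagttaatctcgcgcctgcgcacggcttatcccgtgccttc
Rec8: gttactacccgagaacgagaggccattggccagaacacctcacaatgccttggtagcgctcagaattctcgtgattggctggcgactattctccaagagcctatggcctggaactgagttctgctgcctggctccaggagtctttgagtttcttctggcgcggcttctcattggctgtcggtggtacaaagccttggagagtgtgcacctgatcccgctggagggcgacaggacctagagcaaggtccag
TCTCGCGA was found in the Smc1b window, with overlapping matches on both strands beginning at −74 and −72 from the start, and in the Stag3 window at −71. It occurs in 0.858% of the 32851 RefSeq promoter windows of the same length. GCGGGAA was found at −48 of Smc1b, against 3.82% of all windows, and CACGTG at −170 of Stag3, against 6.02%. The Rec8 window and that of Smc3, whose start holds 98.8% of its counts, held none of these letter strings. The Smc1b and Stag3 windows held 25 and 26 CpG dinucleotides, the Smc3 window 26 and the Rec8 window 10, against a median of 6 over all windows. RefSeq windows were found for 7 of the 9 genes. Those of Rad21l, Stag1 and Smc1a belong to starts that hold 1.00%, 4.37% and 39.2% of their counts, not to the main transcript, and are not described.

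The meiosis-specific SMC subunit was the most abundant cohesin transcript. Levels were compared between genes per length, as TPM (transcripts-per-million) computed from the counts and the exon lengths. In control pools 1, 2 and 3, Smc1b reached 164, 136 and 175 TPM, and in PB 1, 2 and 3 it reached 251, 127 and 268 TPM. Every one of these values exceeded those of the other 8 genes in the same group. Rad21 came next in the group means at 95.8 ± 2.01 TPM in control (SD, n = 3) and 101 ± 6.54 TPM in PB. Its PB range overlapped that of Stag3, which at 105 and 114 TPM was above Rad21, at 101 and 94.7 TPM, in PB 1 and PB 3. Its control range did not overlap that of Rec8, at 78.0 ± 18.1 TPM in control and 71.7 ± 1.82 TPM in PB. Smc3 at 76.0 ± 6.20 TPM, Stag3 at 67.2 ± 8.88 TPM and Smc1a at 62.5 ± 5.38 TPM came next in control. Neighbours from Rec8 down to Smc1a had overlapping control ranges, so their order is not resolved. Stag2 at 40.2 ± 0.689 TPM and Stag1 at 37.6 ± 3.39 TPM also overlapped. Rad21l was the lowest in control, at 27.0 ± 2.13 TPM. In the PB pools Rad21l averaged 42.7 ± 17.4 TPM and its range overlapped that of Stag1.

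Within each position of the ring, the meiosis-specific share differed. Smc1b made up 73.5%, 69.5% and 71.7% of the SMC1 TPM in control and 79.7%, 63.6% and 81.9% in PB. Stag3 made up 48.3%, 43.7% and 46.7% of the STAG TPM in control and 53.2%, 39.4% and 55.8% in PB. Both shares were above every control pool in PB 1 and PB 3 and below every control pool in PB 2. Among the kleisins, Rad21 held 48.0% ± 5.50 of the TPM in control, Rec8 38.5% ± 5.84 and Rad21l 13.5% ± 0.549. The Rad21l share was 22.1% in PB 1 and 25.0% in PB 3 and stood at 11.4% in PB 2. The Rec8 share was 32.6%, 34.7% and 32.5% in PB 1, 2 and 3, within the control range of 31.9% to 43.1%. The meiosis-specific kleisins together held 52.0% ± 5.50 in control and 52.8% ± 5.88 in PB.

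**Figure D1:**
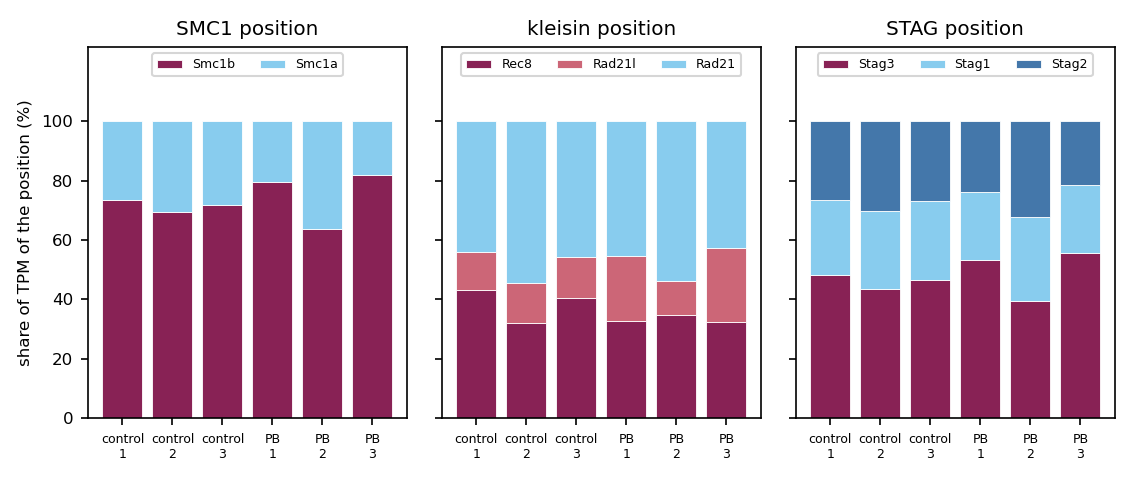
Share of the TPM (y axis, percent) of each gene among the genes of its cohesin position, as stacked bars for the 6 pools. Red and purple parts are meiosis-specific and blue parts mitotic. The Smc1b share of the SMC1 position lay between 63.6% in PB 2 and 81.9% in PB 3. The Rad21l share of the kleisins lay between 11.4% and 25.0% in the same pools.

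Smc1b, Stag3 and Rad21l, 3 of the 4 meiosis-specific genes, were high in PB 1 and PB 3 and low in PB 2. Smc1b, the meiotic SMC1 protein, reached 448, 399 and 462 CPM in control 1, 2 and 3 and 626, 343 and 674 CPM in PB 1, 2 and 3. Stag3, the meiotic STAG protein, reached 208, 175 and 198 CPM in control and 273, 150 and 301 CPM in PB. Rad21l, a kleisin of the chromosome axis in early prophase, reached 52.1, 50.9 and 53.6 CPM in control and 86.7, 43.0 and 98.3 CPM in PB. For each of the 3 genes, PB 1 and PB 3 were above every control pool and PB 2 was below every control pool, so that the groups overlapped. Relative to the control mean, Smc1b was at 1.43, 0.785 and 1.54, Stag3 at 1.41, 0.773 and 1.55 and Rad21l at 1.66, 0.824 and 1.88 in PB 1, 2 and 3. The coefficient of variation of Smc1b was 7.54% among the control pools and 32.7% among the PB pools. For Stag3 it was 8.61% and 33.3%, and for Rad21l 2.56% and 38.4%.

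**Figure D2:**
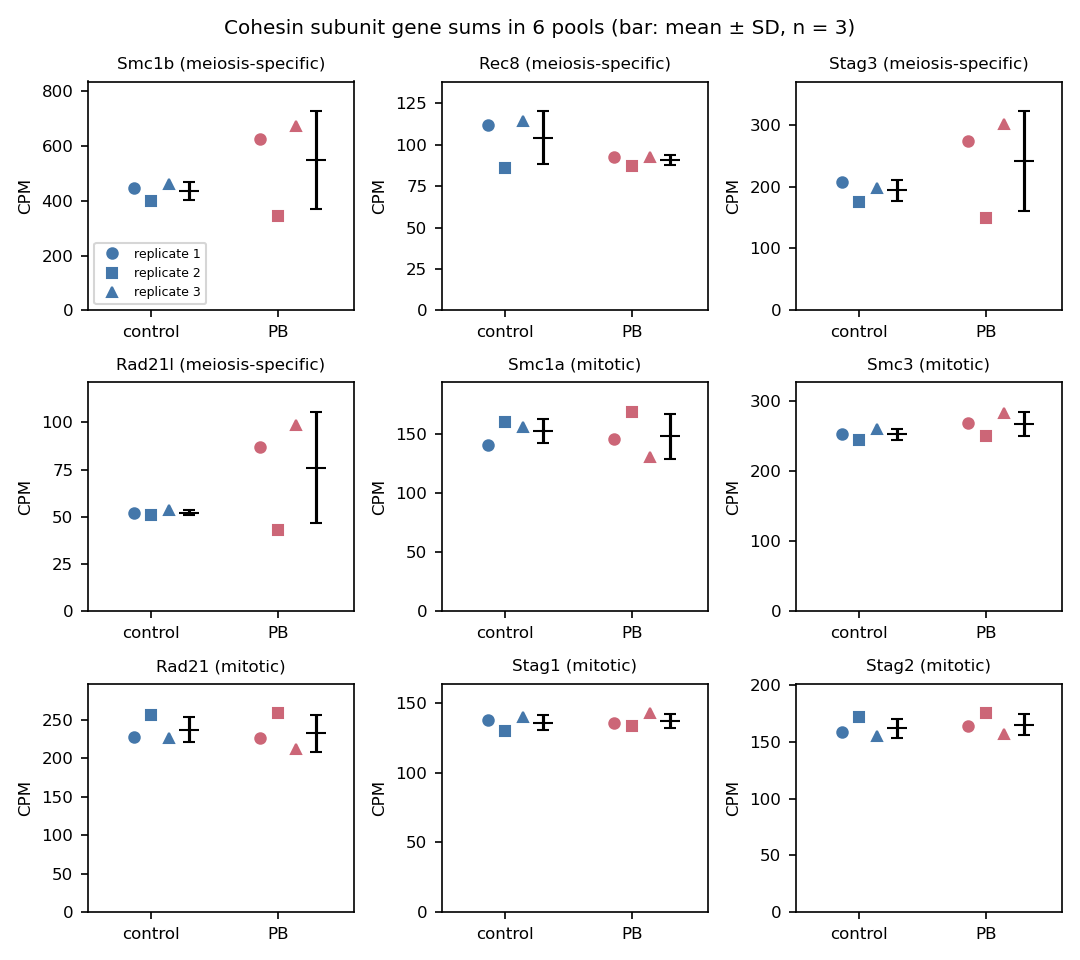
CPM (y axis, from 0) of the 9 cohesin genes in the 3 control pools (blue) and the 3 PB pools (red). Symbols stand for the replicate number and black bars for the mean ± SD (n = 3). The PB squares (PB 2) of Smc1b, Stag3 and Rad21l lie below all control pools, at 343, 150 and 43.0 CPM, and the other PB pools lie above them.

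Rec8, the kleisin that holds sister chromatids together through meiosis, did not share this pattern. It reached 112, 85.7 and 115 CPM in control 1, 2 and 3 and 92.7, 87.4 and 92.5 CPM in PB 1, 2 and 3. The 3 PB pools lay between control 2 and the other control pools, and their coefficient of variation was 3.28% against 15.4% in control. The ratio of Smc1b to Stag3, per kilobase, was 2.24, 2.38 and 2.44 in control and 2.40, 2.40 and 2.35 in PB, a coefficient of variation of 2.91% over the 6 pools. The ratio of Smc1b to Rec8 was 1.79, 2.37 and 2.05 in control and 3.43, 1.83 and 3.70 in PB, a coefficient of variation of 33.0%. The ratio of Rad21l to Rec8 was 0.298, 0.432 and 0.341 in control and 0.678, 0.329 and 0.770 in PB, and varied by 42.2%. Smc1b and Stag3 thus kept their proportion in every pool, whereas Rec8 was low relative to both of them in PB 1 and PB 3.

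**Figure D3:**
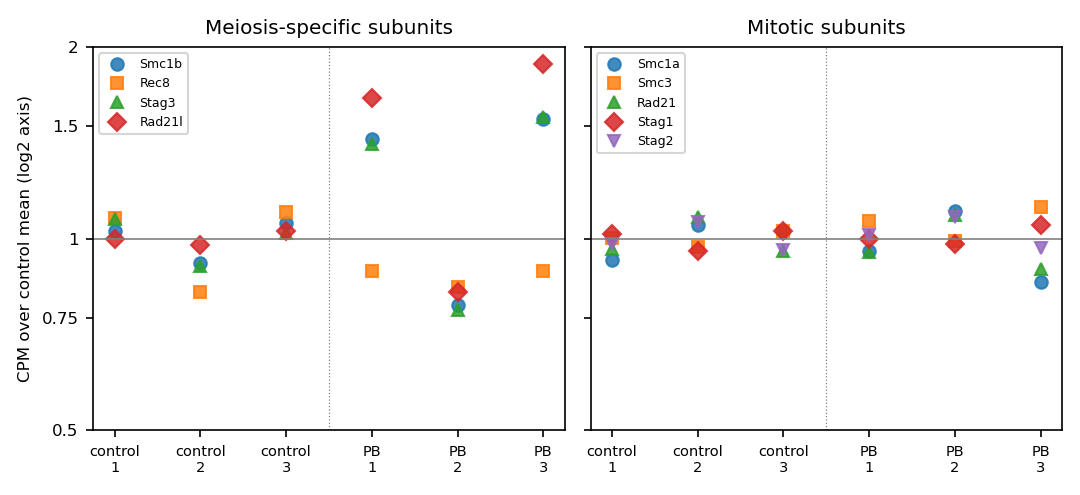
CPM over the mean of the 3 control pools (y axis, log2 scale) for the 4 meiosis-specific genes (left) and the 5 mitotic genes (right) in each of the 6 pools (x axis). The line marks the control mean. In PB 3, Rad21l stood at 1.88 and Rec8 at 0.888 of it, and the mitotic genes lay between 0.856 for Smc1a and 1.12 for Smc3.

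The mitotic subunits differed little between the pools. Smc1a, the somatic SMC1 protein encoded on the X chromosome, reached 141, 160 and 156 CPM in control 1, 2 and 3 and 146, 168 and 130.3 CPM in PB 1, 2 and 3. Smc3, shared by mitotic and meiotic complexes, reached 253, 245 and 259 CPM in control and 269, 250 and 283 CPM in PB. Rad21, the kleisin cleaved by separase at anaphase, reached 228, 256 and 227 CPM in control and 226, 258 and 213 CPM in PB. Smc1a and Rad21 were highest in PB 2 and, among the control pools, in control 2, the pools in which the meiosis-specific genes were lowest. Stag1 lay between 129.8 and 142 CPM and Stag2 between 155 and 175 CPM over the 6 pools. The coefficient of variation of these 5 genes was between 2.93% for Smc3 and 6.92% for Rad21 in control and between 3.53% for Stag1 and 12.8% for Smc1a in PB. All 5 had overlapping groups in CPM. In TPM the 3 PB values of Stag2, between 43.3 and 46.7, were above the control values, between 39.5 and 40.9. The PB mean relative to the control mean was higher in TPM than in CPM for each of these 5 genes. The upward shift in TPM was thus not particular to Stag2. How many of all genes have groups without overlap in TPM was not computed.

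None of the 9 genes passed the thresholds of a 2-fold change and a false discovery rate (FDR) of 0.05 in edgeR's quasi-likelihood test with Benjamini-Hochberg adjustment over 19435 tested genes, and all 9 genes entered that test. None had an unadjusted p under 0.05, and none had groups without overlap in CPM. The DESeq2 Wald test called 0 of the 9 as well, and Rad21l was the only one with an unadjusted p under 0.05 there (adjusted p = 1.00). Of all 26610 genes fitted by DESeq2, 11 were called and 969 had an unadjusted p under 0.05. In the background of all genes tested in edgeR, 0.0154% were called and 4.46% had an unadjusted p under 0.05. Groups without overlap were found in 10.7% of them, 5.1% with PB above and 5.61% with PB below control. The 4 meiosis-specific genes had a median log2 fold change, PB over control, of 0.32, the 5 mitotic genes one of 0.01 and all tested genes one of 0.00. Rad21l had the largest log2 fold change among the members, 0.54 ± 0.28 (SE, edgeR, FDR = 0.888). That of Smc1b was 0.33 ± 0.24 and that of Stag3 0.32 ± 0.25 (edgeR, FDR = 0.888 for both). Rec8 was the member with the lowest value, −0.20 ± 0.11 (edgeR, FDR = 0.888). The mitotic genes lay between −0.04 ± 0.10 for Smc1a and 0.08 ± 0.06 for Smc3, with an FDR in edgeR of 0.888 to 0.973.

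Leaving out PB 2 raised the fold changes of Smc1b, Stag3 and Rad21l and lowered their errors. Rad21l then had a log2 fold change of 0.83 ± 0.06, below 2-fold, at an FDR of 0.0214 in the edgeR test. Smc1b reached 0.57 ± 0.08 (edgeR, FDR = 0.0999) and Stag3 0.57 ± 0.08 (edgeR, FDR = 0.103). Rec8 stayed at −0.17 ± 0.13 (edgeR, FDR = 0.620). Smc3 had the smallest p of the mitotic genes, at 0.13 ± 0.05 (edgeR, FDR = 0.348). None of the 9 genes reached the 2-fold threshold. In the same fit, 2441 genes had an unadjusted p under 0.05 and 9 were called, against 867 and 3 with all pools, so that many genes outside the cohesin group also separated without PB 2. Leaving out any other pool gave between 550 and 740 genes at that p. The labels give no reason to leave out this pool. PB 2 was singled out by its values in the meiotic genes, the same values that were then tested. The p-values and FDRs of these genes and their ratios without PB 2, here and below, follow from that choice. They are therefore no test of an effect.

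**Figure D4:**
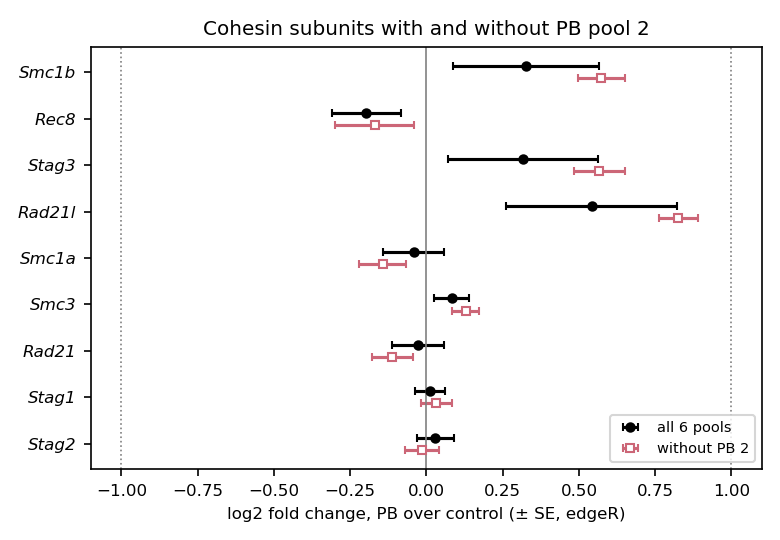
Log2 fold change of PB over control (x axis, ± SE from edgeR) for the 9 cohesin genes with all 6 pools (filled circles) and without PB 2 (open squares). Dotted lines mark a 2-fold change. Rad21l moved from 0.54 to 0.83, Smc1b from 0.33 to 0.57 and Stag3 from 0.32 to 0.57, all short of the dotted line, while Rec8 stayed below 0.

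The meiosis-specific subunits were then set against their mitotic counterparts in the same pool, per kilobase. The ratio of Smc1b to Smc1a was 2.78, 2.27 and 2.54 in control and 3.92, 1.75 and 4.52 in PB. The ratio of Rad21l to Rad21 was 0.291, 0.254 and 0.302 in control and 0.488, 0.213 and 0.588 in PB. Both ratios were above all control pools in PB 1 and PB 3 and below them in PB 2. Stag3 relative to Stag1 plus Stag2 was 0.933, 0.776 and 0.877 in control and 1.14, 0.650 and 1.26 in PB. The ratio of Rec8 to Rad21 was 0.978, 0.588 and 0.887 in control and 0.720, 0.646 and 0.763 in PB, all 3 within the control range. The differences of the log2 ratios, PB minus control, were 0.32 ± 0.44 (SE) for Smc1b, 0.48 ± 0.46 for Rad21l, 0.19 ± 0.31 for Stag3 and −0.17 ± 0.24 for Rec8. In two-sided exact permutation tests their p-values were 0.5, 0.4, 0.5 and 0.5, and 0.5 each after Benjamini-Hochberg adjustment over the 4 ratios. With 3 pools against 3, such a test cannot give a p below 0.1. Without PB 2, the differences were 0.74 for Smc1b, 0.93 for Rad21l and 0.48 for Stag3, each at p = 0.1, the smallest the exact permutation test can give with 3 pools against 2, and −0.11 for Rec8 at p = 0.8.

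The germ cell genes Ddx4 and Dazl were, like the meiosis-specific subunits, lowest in control 2 among the control pools and in PB 2 among the PB pools. Of the 8 germ cell genes listed, 7 were lowest in control 2 among the control pools but only 3 in PB 2 among the PB pools, the other one being Mael. Relative to the summed CPM of Ddx4 and Dazl, a scale chosen after the values had been seen, Smc1b stood at 1.07, 1.33 and 1.09 in control and at 1.46, 1.27 and 1.55 in PB. Rad21l stood at 0.124, 0.170 and 0.127 in control and at 0.203, 0.160 and 0.226 in PB. On this scale PB 2 lay below control 2 and above the other control pools for both genes. Stag3 stood at 0.495, 0.584 and 0.468 in control and at 0.637, 0.556 and 0.690 in PB, with PB 2 again below control 2 and above the other control pools. Rec8 stood at 0.267, 0.285 and 0.271 in control and at 0.217, 0.325 and 0.212 in PB, highest in PB 2 and lowest in PB 1 and PB 3. The log2 differences, PB minus control, were 0.30 for Smc1b, 0.29 for Stag3, 0.49 for Rad21l and −0.16 for Rec8, with exact permutation p-values of 0.2, 0.2, 0.2 and 0.4. All 4 had overlapping groups.

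Of the 8 germ cell genes listed, 0 were called, and 4 had an unadjusted edgeR p under 0.05, all lower in PB. That p was reached by 4.46% of all tested genes. Dnd1, an RNA-binding protein of germ cells, was at −0.55 ± 0.20 on the log2 scale, and Dppa3, a gene of early germ cells, at −0.52 ± 0.21. The pluripotency factor Pou5f1 was at −0.58 ± 0.20 and the zinc finger factor Sall4 at −0.59 ± 0.22, all at an FDR of 0.888 in edgeR. The groups overlapped for each of these 4 genes, with control 2 below at least 1 PB pool, as at 18.3 CPM for Pou5f1 against 18.6 CPM in PB 3. Mael, a piRNA pathway factor, was at 0.25 ± 0.25. Ddx4 and Dazl were at −0.04 ± 0.22 and −0.00 ± 0.21. Without PB 2, 1 of the 8 was higher and 2 were lower at an unadjusted p under 0.05, against 12.3% of all tested genes. The list had a median of −0.29, also without PB 2. Relative to the control mean, its median level was 0.812, 0.727 and 0.842 in PB 1, 2 and 3. Control 2 lay within that range at 0.781, while the other control pools were above 1. Its summed level was 433 to 610 CPM in control and 393 to 622 CPM in PB. The pregranulosa list of 6 genes had a median of −0.01, or −0.04 without PB 2, and sums of 1269 to 1365 CPM in control and 1211 to 1391 CPM in PB. Of 6 genes of dividing cells none had an unadjusted p under 0.05. Without PB 2 it was 1 higher and 2 lower, against the same 12.3%. Mki67, a nuclear protein of cycling cells, was highest in control 2 and PB 2, at 394 and 371 CPM. The part of the cell makeup of the pools in the cohesin values was not tested.

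The partners of meiotic cohesin on the chromosome axis and in the synaptonemal complex mostly had the pool pattern of Smc1b and Stag3. In 9 of the 10 listed genes PB 1 and PB 3 were above and PB 2 below every control pool, as in 7.24% of the 19435 genes tested. The exception, 4930447C04Rik, had 46.0, 30.5 and 35.5 CPM in control and 42.9, 17.7 and 67.4 CPM in PB. All 10 listed genes were tested, 0 were called and 0 had an unadjusted p under 0.05 in edgeR. All 10 had a positive log2 fold change, with a median of 0.26. Sycp3, which builds the axis together with cohesin, reached 118, 111 and 116 CPM in control and 172, 81.2 and 184 CPM in PB. Sycp1, the transverse filament that joins the axes, reached 109, 106 and 112 CPM in control and 154, 71.1 and 161 CPM in PB. Both genes were above all control pools in PB 1 and PB 3 and below them in PB 2. Without PB 2, 9 of the 10 had an unadjusted p under 0.05, against 12.3% of 19821 genes tested in that fit. Of those 19821 genes, 33 had an FDR of at most 0.05, and among them Sycp1, Sycp2 and Sycp3 had an edgeR FDR of 0.0265, 0.0173 and 0.0214, with log2 fold changes of 0.53, 0.72 and 0.63. Since PB 2 was set apart by its values in meiotic genes, these counts and FDRs without it are no test of the list. The list's median level relative to the control mean was 1.40, 0.746 and 1.51 in PB 1, 2 and 3. Of the 6 genes of a meiotic prophase list, 2 of them shared with this one, 0 were called, and the median log2 fold change was 0.29. Without PB 2 the median was 0.53, with 5 of the 6 at an unadjusted p under 0.05. Spo11, which makes the double-strand breaks of meiotic recombination, had 5.82, 7.32 and 6.68 CPM in control and 11.3, 5.06 and 11.3 CPM in PB. Stra8, which starts the meiotic programme, had 109, 65.6 and 100.3 CPM in control and 91.5, 55.4 and 113 CPM in PB. For Stra8, PB 1 was thus not above the control pools.

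The regulators that load, acetylate, release or cleave cohesin gave 0 calls. Of 18 listed genes, 17 were tested and Sgol2b had 0 counts in every pool, which allows up to 3 counts per pool. Their median log2 fold change was 0.02. Of the 17, 1 had an unadjusted p under 0.05 in edgeR, against 4.46% of all tested genes. It was Nipbl, the subunit that loads cohesin onto DNA (log2 fold change 0.17 ± 0.07, edgeR FDR = 0.888). Nipbl had 182, 172 and 185 CPM in control and 209, 185 and 214 CPM in PB. Esco2, which acetylates SMC3 and so stabilises the ring, reached 117, 98.0 and 107 CPM in control and 147, 85.5 and 161 CPM in PB. PB 1 and PB 3 were above and PB 2 below every control pool, as for Smc1b. Of the 17 tested regulators, 2 had this pattern (11.8%), the other being Esco1, against 7.24% of all genes tested. Without PB 2, 5 of the 17 had an unadjusted p under 0.05, against 12.3%, with Nipbl, Esco1 and Esco2 higher and Pttg1 and Plk1 lower in PB. The list median was then −0.02 and none had an FDR of at most 0.05, and Esco2 was at 0.51 (edgeR, FDR = 0.136). Hdac8, the deacetylase that removes this acetyl group and belongs to the enzyme family that PB inhibits, averaged 11.6 CPM in control and 11.8 CPM in PB (log2 fold change 0.02 ± 0.07, edgeR FDR = 0.965). Wapl, which releases cohesin from chromatin, averaged 211 and 220.2 CPM, and Sgol2a, the protector of centromeric cohesin in meiosis, 30.9 and 29.4 CPM.

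Genes with the pool pattern most like the mean of the 4 meiosis-specific subunits were sought among 19426 other tested genes by the root mean square difference of the centred log2 CPM over the 6 pools. The 5 nearest were Ddx10 (0.0247), Slc25a25 (0.0298), Ccdc172 (0.0299), Cbwd1 (0.0350) and Bub1 (0.0356), against a median of 0.329 over all genes. The members themselves lay at 0.0652 for Smc1b, 0.0703 for Stag3, 0.181 for Rad21l and 0.305 for Rec8, so Rec8 was nearly as far from the mean it contributes to as a typical gene. Ddx10, an RNA helicase, averaged 166 CPM in control and 194 CPM in PB, and Bub1, a kinase of the spindle checkpoint, 140 and 164 CPM.

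The division of the counts among transcripts was less stable than the gene sums. Reads of a locus that fit several transcripts are apportioned by StringTie, and the common biological coefficient of variation was 98.4% for transcripts and 20.9% for gene sums. Of the 47 transcripts, 39 were tested by edgeR and none was called, against 0.0332% of 51227 tested transcripts. Of the 39, 3 had an unadjusted p under 0.05, against 3.56%, and all 3 belonged to Stag1. DESeq2 fitted 45 of the 47 but gave no p-value for some, among them XM_017316098.1, XR_001781136.1 and XM_017316099.1 of Rec8. It called none, and 4 had an unadjusted p under 0.05. Of all 79895 transcripts fitted, it called 1172, and 5206 had such a p. The median log2 fold change of the 39 transcripts was −0.07, and 15 were higher and 24 lower in PB. For 4 of the 39 the groups did not overlap in CPM. Among gene sums 10.7% of all tested genes had no overlap, and the share over all transcripts was not computed. Without PB 2, 8 of 42 tested transcripts had an unadjusted p under 0.05, against 5.45% of 55288, and none had an FDR of at most 0.05.

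The Stag1 sum stayed between 13149 and 16545 counts, while its division among transcripts differed between pools. Its main transcript NM_009282.3, which starts at chr9:100643623 (mm10, plus strand) and has 34 exons, had 9550, 12439 and 9471 counts in control 1, 2 and 3 and 4123, 11095 and 5047 counts in PB 1, 2 and 3. XM_017313258.1, which starts downstream at chr9:100712438 and has 31 exons, had 1207, 1128 and 1323 counts in control and 8617, 1053 and 10582 counts in PB. Counts of the longer form were low and counts of the shorter form high in PB 1 and PB 3, and PB 2 resembled the control pools, the same division of the pools as in Smc1b. The shorter form had a log2 fold change of 2.39 ± 0.83 (edgeR, FDR = 1.00) and the longer form one of −0.65 ± 0.42 (edgeR, FDR = 1.00). XM_006510925.2, which holds 4.29% of the Stag1 counts and starts at chr9:100643448, had 610, 885 and 876 counts in control and 343, 418 and 529 counts in PB. It was 1 of the 4 tested transcripts of the members whose groups did not overlap in CPM, a share not computed over all transcripts. Its log2 fold change of −0.93 ± 0.24 had an FDR of 0.945 in edgeR and of 0.0190 in DESeq2, below 2-fold in both. XM_006510924.2 rested on the 1829 counts of control 1, while the other 5 pools had between 15 and 177 counts.

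The Rec8 counts were assigned to different annotated forms in different pools. NM_020002.3, which starts at chr14:55618166 on the plus strand with 20 exons, had 718, 9959 and 10763 counts in control 1, 2 and 3 and 9170, 647 and 10712 counts in PB 1, 2 and 3. XM_017316098.1, which starts at chr14:55618230 with 19 exons, had 7991 counts in control 1, 6152 counts in PB 2 and 0 counts in the other 4 pools. Each group held 1 such pool, and the Rec8 gene sums remained between 8936 and 11024 counts. XR_001781136.1 had 2315 counts in control 1 and 649 counts in PB 2, against 25 to 35 counts in the other pools. XM_017316099.1 had 1488 counts in PB 2 and 0 counts elsewhere. XM_017316098.1 shares 17 of its 18 introns with NM_020002.3. Whether the pools differed in the forms used or only in how shared reads were apportioned was not tested. The promoter printed for Rec8 lies directly before the start of NM_020002.3. The start of XR_001781136.1 and XM_017316099.1, at chr14:55617995, lies inside that window.

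**Figure D5:**
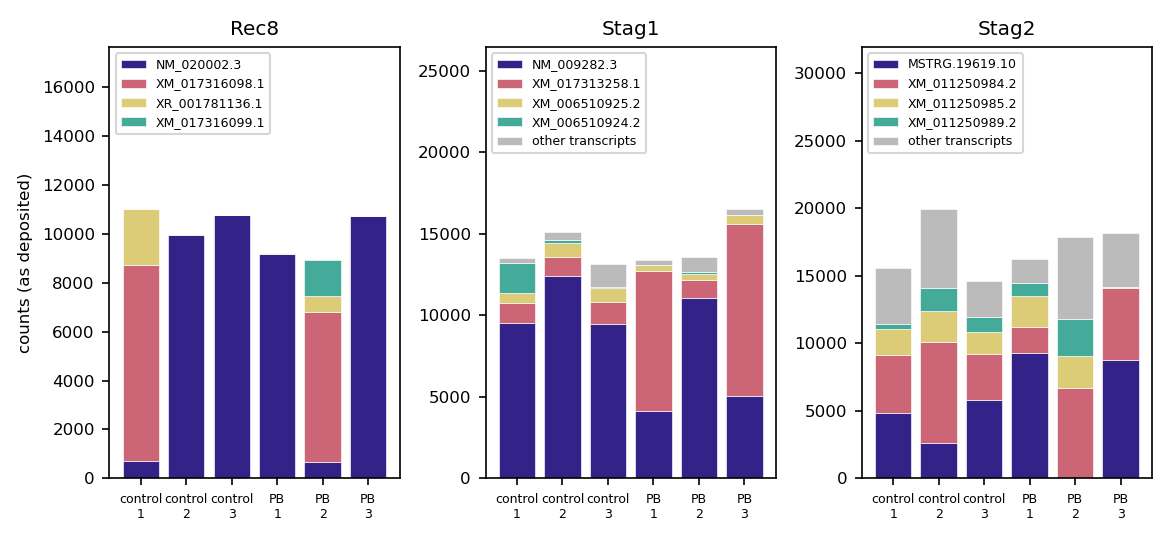
Counts as deposited (y axis) of Rec8, Stag1 and Stag2 in the 6 pools, stacked by transcript. The 4 transcripts with most counts are coloured and the remaining ones are grey. XM_017316098.1 of Rec8 appears in control 1 and PB 2, with 7991 and 6152 counts, and XM_017313258.1 of Stag1 reaches 8617 and 10582 counts in PB 1 and PB 3.

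Smc1b was represented by a single transcript, NM_080470.1 (chr15:85064689-85131957, minus strand, 25 exons). Smc3, Rad21 and Stag3 also rested on 1 main transcript, with 98.8%, 99.5% and 95.7% of their counts. The 3 Rad21l transcripts that share the start at chr2:151670622 on the minus strand held 55.7%, 22.5% and 20.8% of its counts. The largest of them, XM_006500044.2, had 2580, 3125 and 2557 counts in control 1, 2 and 3 and 4125, 2967 and 7204 counts in PB 1, 2 and 3, with a log2 fold change of 0.73 ± 0.29 (edgeR, FDR = 1.00). In CPM, its PB pools were all above its control pools, although PB 2 had fewer counts than control 2. It was another of the 4 tested transcripts without overlap, a share not computed over all transcripts. XM_006500042.2 of Rad21l had 1433, 1451 and 1388 counts in control and 2240, 406 and 1518 counts in PB, with PB 2 again the lowest. In Stag2, with 12 transcripts on the X chromosome, the assembled transcript MSTRG.19619.10 had 4857, 2621 and 5827 counts in control and 9312, 0 and 8765 counts in PB, while the Stag2 sums stayed between 14594 and 19975 counts. Smc1a was divided mainly between XM_006528840.2 and NM_019710.2, with 56.7% and 39.2% of its counts. The Smc1a and Stag1 sums each include 1 assembled transcript that lies in an intron on the opposite strand, with 0.694% and 1.92% of the counts.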

How the data were processed

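Stranded polyA RNA-seq counts of 3 control and 3 PB pools were analysed. The authors used HISAT2 2.1.0 for alignment to mm10 and StringTie 1.3.5 with a RefSeq annotation for assembly and merging, and deposited whole-number counts per transcript from prepDE, without normalization. The authors' own comparison with DESeq2 1.30.0, deposited as log2 fold changes with p-values and adjusted p-values beside a normalized signal per pool, was not used. Gene names, positions and exon lengths came from the deposited annotation. The 1493 transcripts without a gene name (3.05% to 4.49% of a pool's counts) were left out of the gene sums. The StringTie division of reads bears on transcript counts more than on sums.

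Gene sums and transcripts were tested in edgeR 4.0.16 under R 4.3.3 (limma 3.58.1, data.table version 1.17.8), with TMM scaling, filterByExpr (minimum count 10, minimum total 15) and the quasi-likelihood F-test with Benjamini-Hochberg adjustment over all genes or transcripts. A call needed at least a 2-fold change at an FDR no higher than 0.05. A standard error is the log2 fold change divided by the square root of F. Ratios were tested by exact permutation with Python 3.11.15 (pandas 2.3.3, numpy 2.4.6). The edgeR and DESeq2 code was tested on simulated data. Nothing in the labels says that pools came from separate litters, so p-values measure the spread between these pools. No batch is named in the labels. The design text calls all 6 libraries exposed, and groups follow the treatment labels. Alternatives were DESeq2 1.42.0 (size factors, Wald test), no filter, a stricter filter, a block for the replicate number, known transcripts only, grouping by locus, no minimum fold change and leaving out each pool. For the ratios they were summed counts, known transcripts, the difference of edgeR fold changes, the block and leaving out each pool. The scale relative to Ddx4 and Dazl was added after the data had been seen.

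The members and lists were chosen with earlier results of these data known. The rule for naming took the 9 members, their transcripts with at least 5% of the counts, a call or an unadjusted p under 0.05, list genes with such a p, and the 5 nearest genes by pattern. Not every transcript that met it is given by pool. Among those left out are XM_006500043.2 of Rad21l and XM_011250984.2, XM_011250985.2 and XM_011250989.2 of Stag2. Other transcripts, list genes and motifs named were chosen after their values were seen. Red blood cell, Leydig, Sertoli and mesonephros lists were also counted, with 0 genes called, and Hba-a2, a hemoglobin gene with a near-identical copy, was the only one of them with an unadjusted p under 0.05 in edgeR (log2 fold change −0.77, FDR = 0.888).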

Additional observations from a re-analysis of the deposited data

How the results depend on the processing

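The count of called cohesin genes was 0 under every alternative run, as was the count of called cohesin transcripts and of called genes in the cohesin regulator and synaptonemal complex lists. Of the 209 alternative values computed, 201 were counted as the same. Fold changes kept their sign and stayed uncalled, ratios and values relative to Ddx4 plus Dazl kept their sign, and counts stayed at 0. Rad21l without PB 2 was among them, below 2-fold but at an edgeR FDR of 0.0214. The other 8 changed sign, all of them log2 fold changes of mitotic genes close to 0. Smc1a went from −0.04 to 0.042 without PB 3. Rad21 went from −0.03 to 0.026 without control 2 and 0.031 without PB 3. Stag1 went from 0.01 to −0.022 without control 2 and −0.017 without PB 3. Stag2 went from 0.03 to −0.0051 without control 3 and −0.014 without PB 2, and to −0.11 with known transcripts only, which drops MSTRG.19619.10. The cause of the other sign changes was not tested.

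Leaving out each pool in turn gave log2 fold changes of 0.15 to 0.57 for Smc1b, 0.12 to 0.57 for Stag3, 0.31 to 0.83 for Rad21l and −0.32 to −0.13 for Rec8. The ranges were −0.14 to 0.042 for Smc1a, 0.039 to 0.13 for Smc3, −0.11 to 0.031 for Rad21, −0.022 to 0.032 for Stag1 and −0.014 to 0.070 for Stag2. The log2 ratio differences ranged from 0.053 to 0.74 for Smc1b, −0.39 to −0.028 for Rec8, 0.19 to 0.93 for Rad21l and 0.00075 to 0.48 for Stag3. Without control 2, the Rec8 to Rad21 difference was −0.39 at an exact permutation p of 0.1. The highest value for Smc1b, Stag3 and Rad21l came without PB 2, on both scales.

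The correlations of same-numbered deviations were 0.0934, 0.147 and −0.0177, and those of differently numbered pools were between −0.167 and 0.0963. These values do not settle whether the replicate numbers pair the pools. With the replicate number as a block in edgeR, 0 of 19435 genes were called, with 1091 at an unadjusted p under 0.05. The log2 fold change of Smc1b was then 0.27, of Stag3 0.26, of Rad21l 0.46 and of Rec8 −0.19, none called. Over the whole table, DESeq2 called 1172 of 79895 transcripts and edgeR 17 of 51227, and the cause was not tested.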
